A study of Mus musculus with 8 samples.

Results

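The genes described here encode the proteins of the cytoplasmic ribosome in a mouse fibroblastic reticular cell (FRC) line. They were chosen by symbol: Rpl or Rps followed by a number (with a final a or x in some names), the P-stalk genes Rplp0 to Rplp2, Rpsa and Rps3a1. This rule found 77 of the 55367 gene rows, and 76 of them, 45 of the large and 31 of the small subunit, had at least 10 counts in at least 3 of the 8 libraries and were tested among 12137 genes. Rpl24 was the row left out. It held 2 and 5 counts (vehicle), 1 and 3 (CCM), 1 and 5 (LA) and 0 and 1 (TCM), and 47% of its exonic bases are shared with another annotated gene on the same strand.

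FRCs are the fibroblasts that build the scaffold of the lymph node. The line came from C57BL/6 mouse lymph nodes of the p53 ER/ER genotype, so that background is common to all 4 groups, and each group was 1 line in culture and not an animal. Cells grew for 4 days in RPMI with 2% FBS. The medium had been conditioned by B16.F10 melanoma cells (TCM), conditioned by FRCs themselves (CCM), mixed with 15 mmol/L lactic acid (LA) or mixed with water (vehicle). Each condition had 2 libraries of poly(A) RNA. The study describes them as biological replicates, but no label names separate cultures, so P values measure only the spread between these libraries, which may be technical.

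A eukaryotic ribosome joins a small subunit, which reads the mRNA, to a large subunit, which forms peptide bonds and releases the chain through an exit tunnel. Most subunit proteins are present in 1 copy per ribosome, and their mRNAs are among the most abundant of a cell. These mRNAs typically begin with a C followed by a run of pyrimidines, the terminal oligopyrimidine (TOP) start, through which mTORC1 and LARP1 adjust their translation and stability together. Cells that grow and divide fast usually make more ribosomes.

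The libraries held 8232889 to 14107964 counted reads, and 3 counts, taken as the floor, equalled 0.213 to 0.364 CPM, the count scaled to the size of the library. The collagen gene Col1a1 and 5 other FRC genes summed to 13820 CPM or more in every library. Of these, Thy1, which the paper treats as an activation marker, was not high enough to be tested. The paper reports Thy1 mRNA and protein in cultured FRCs. With TCM against CCM, Pdpn rose (log2 FC 0.44) and Pdgfrb fell (log2 FC -0.47). The 8 leukocyte and endothelial markers summed to at most 1.29 CPM, and the 7 melanoma markers to between 1.88 and 3.77 CPM, with 2 of the 7 high enough to be tested. In each TCM library 2 of the 7 melanoma markers had 0 counts, against 4 in LA library 2 and 5 in every other library. Their sums in the TCM libraries were 2.47 and 2.15 CPM. TCM library 1 stood apart from TCM library 2 in a way that followed mRNA length, which is given with the results it touches.

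Ribosomal protein mRNAs took the largest share of reads with TCM, but the gap between the TCM libraries was wider than that between conditions. The 76 genes held 4.68% and 4.17% of counted reads in the vehicle libraries, 4.58% and 5.11% in the CCM libraries, 4.34% and 3.95% in the LA libraries, and 7.20% and 4.97% in the TCM libraries. TCM library 2 was thus below CCM library 2, and the groups overlapped. The mean share was 6.09% ± 1.57 (SD, n = 2) with TCM, 4.84% ± 0.38 with CCM, 4.42% ± 0.36 with vehicle and 4.14% ± 0.27 with LA. A 2-sided exact permutation test gave P = 0.667 for TCM against CCM, where 2 libraries against 2 cannot go below 0.33. Both subunits moved in step: the small subunit held 3.21% and 2.13% with TCM against 1.97% and 2.22% with CCM, and the large subunit held 3.99% and 2.84% against 2.61% and 2.89%. Rows of ribosomal protein pseudogenes, 317 in all, held 0.0101% to 0.0194% of reads. In bulk RNA such as this, fewer cells of a kind and less RNA per cell cannot be told apart.

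**Figure D1:**
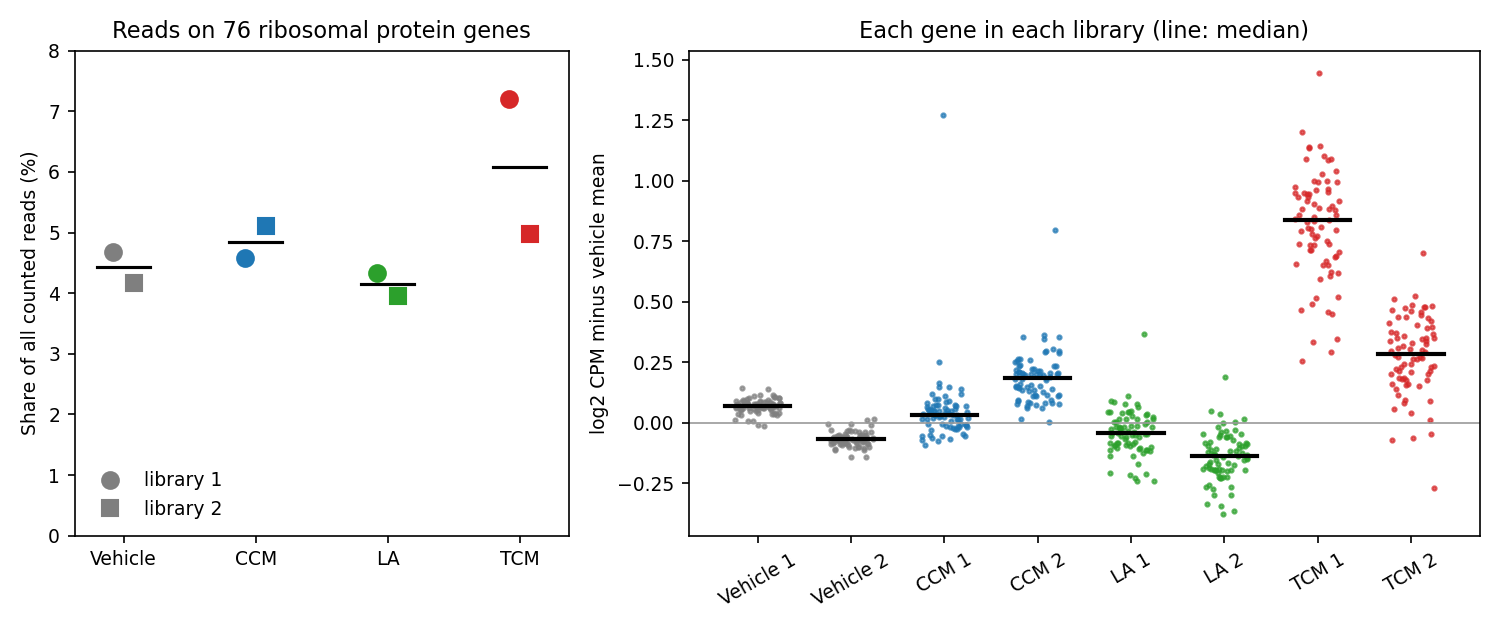
Left, the share of counted reads (%) on the 76 ribosomal protein genes in each library, with the mean of 2 libraries as a line. Right, log2 CPM of every gene minus its mean over the vehicle libraries, 1 point per gene and a line at the median. TCM library 1 held 7.20% of its reads on these genes and TCM library 2 held 4.97%, below the 5.11% of CCM library 2.

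After scaling by TMM factors, which equalise the bulk of genes between libraries, the median gene of the group stood at a log2 CPM of 8.95 and 8.79 (vehicle), 8.88 and 9.06 (CCM), 8.83 and 8.71 (LA) and 9.78 and 9.20 (TCM). On this scale both TCM libraries were above all others. The genes also moved together between libraries of one condition. In TCM library 1, 75 of 76 were higher than in TCM library 2, by a median of 0.52 on the log2 scale, whereas the median over all tested genes differed by 0.004. The same co-movement was smaller elsewhere: 74 of 76 were higher in vehicle library 1 than in vehicle library 2 (median 0.14), 64 of 76 in LA library 1 than in LA library 2 (0.11), and 74 of 76 were lower in CCM library 1 than in CCM library 2 (0.14).

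Levels per mRNA length, given in TPM from the principal transcript of each gene, spanned a wide range in each condition. With vehicle the median of the 76 genes was 1576 TPM, and 52 of them lay within 2-fold of it. Rplp1, a P-stalk protein present in several copies per ribosome, was highest at 8101 TPM, followed by Rps12 at 6465 TPM and Rps15 at 4519 TPM. Rps15a at 219 TPM, Rpl13a at 175 TPM and Rps10 at 7.29 TPM were lowest. The same 3 genes led and the same 3 closed the order with CCM, LA and TCM. Of these lowest rows, 29.4% of the exonic bases of Rpl13a and 20.6% of those of Rps10 are shared with another gene on the same strand, and Rps15a has an annotated principal transcript of 5179 nt.

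TCM against CCM asks what melanoma-conditioned medium changed beyond medium conditioned by FRCs. Of the 76 genes, 32 rose with TCM (42.1%) and 0 fell, where 8.83% of all tested genes rose and 10.2% fell, by edgeR's quasi-likelihood test with Benjamini-Hochberg adjustment and a log2 fold change (log2 FC) beyond 0.39. By DESeq2, 50 rose and 0 fell, where 2004 of the 12137 genes were called in either direction. At an unadjusted P under 0.05, 59 of the 76 differed (77.6%), and 34.3% of all genes. The median log2 FC of the group was 0.48, against 0.00 over all genes, and 74 of 76 values were above 0. The small subunit had a median of 0.49 with 13 of 31 genes called, and the large subunit 0.45 with 19 of 45. Both TCM libraries were above both CCM libraries for 58 of 76 genes (76.3%), and for 27.8% of all genes.

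The size of this difference depended on the TCM library. With TCM library 2 as the lone TCM library, 5 genes rose (6.58%, against 9.02% of all genes), Rpl13a fell, and the median log2 FC was 0.17 with 67 of 76 values above 0. With TCM library 1 alone, 66 rose (86.8%, against 11.9% of all genes) and the median was 0.71. TCM library 2 was above both CCM libraries for 58 of 76 genes, against 40.5% of all genes. Rpl28, Rpl26 and Rpl4 were among the 5 genes that rose in it. Leaving out CCM library 1 left 1 call, Rpl28 (1.32%, against 4.27% of all genes), and leaving out CCM library 2 left 7 (9.21%, against 4.34%). Without TMM factors, the median of all genes moved to -0.14, and 15 members rose, where 5.36% of all tested genes rose. The median of the members was 0.34, or 0.48 above that of all genes. Rises then made up 24.2% of all called genes in place of 46.3%.

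**Figure D2:**
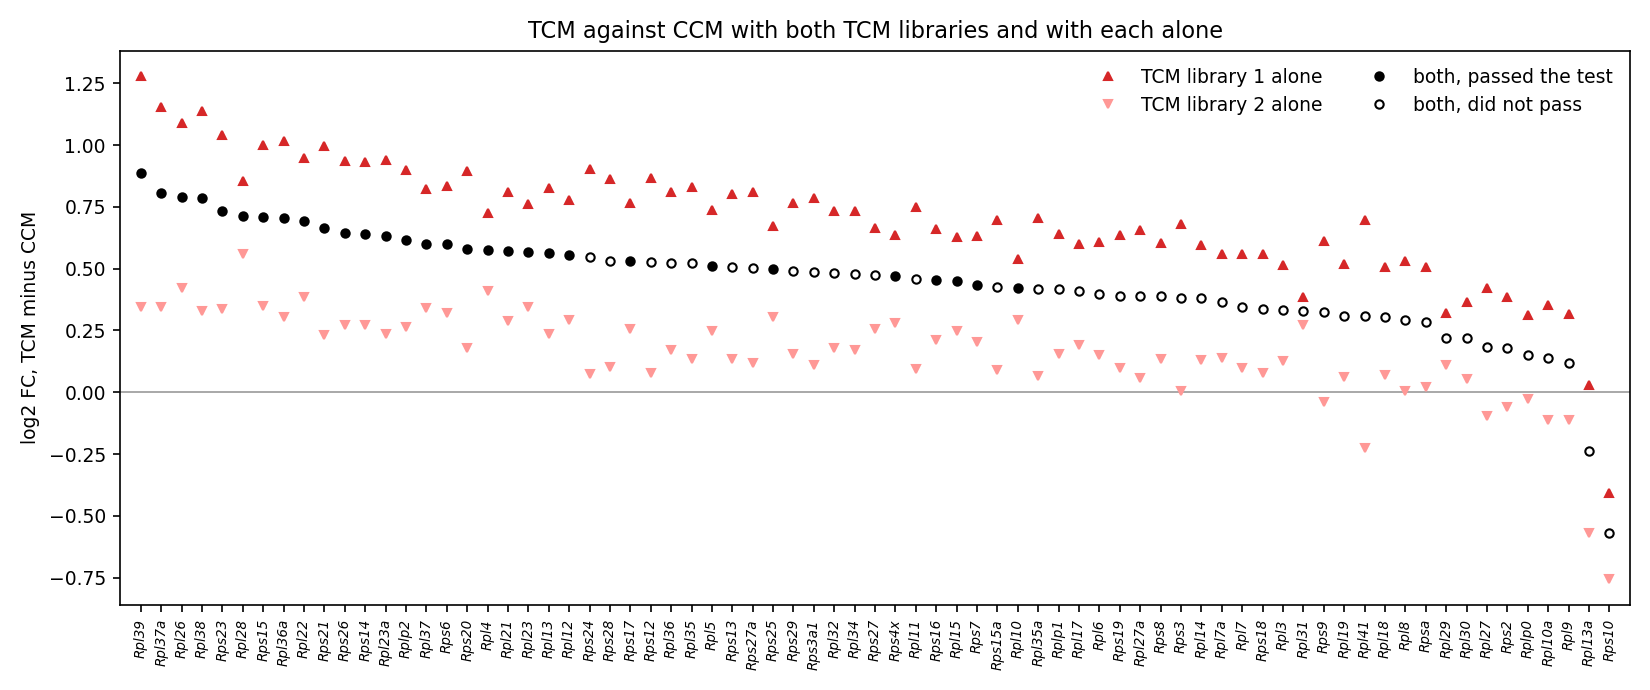
The log2 FC of TCM against CCM for 73 of the 76 genes, in order of the value with both TCM libraries (circles, filled where the gene passed the test), with the value when only TCM library 1 (upward triangles) or only TCM library 2 (downward triangles) was used. Over all 76 genes the median was 0.71 with library 1 alone and 0.17 with library 2 alone.

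Among the genes of the peptide exit, Rpl39 had the largest difference. It encodes a very short protein that lines the exit tunnel, and lies on GRCm38 at chrX:37082520-37085402. It stood at 302 and 332 CPM with CCM and at 769 and 403 CPM with TCM, against 293 and 272 CPM with vehicle and 299 and 273 CPM with LA. Both TCM libraries were the highest of the 8, and library 1 was far above library 2. The log2 FC was 0.89 (SE 0.22, adjusted P = 0.0160), or 0.35 without TCM library 1. Rpl26, at chr11:68901583-68906989, sits beside the tunnel exit and has also been tied to translation of p53 mRNA. It stood at 423 and 451 CPM with CCM and 929 and 585 CPM with TCM, so the groups did not overlap (0.79 log2 units, SE 0.17, adjusted P = 0.00779, and 0.42 without TCM library 1). Rpl22, at chr4:152325742-152334071, is a non-essential protein of the outer surface with a close paralog. It measured 383 and 419 CPM with CCM and 772 and 524 CPM with TCM (0.69 log2 units, SE 0.15, adjusted P = 0.00910). Of the 8 genes of the exit list, 4 rose and 4 did not pass. Over the 76 genes 42.1% rose, and over all tested genes 8.83%. Rpl17, on the exit list, did not pass, and measured 738 and 809 CPM with CCM against 1171 and 883 CPM with TCM.

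Other large-subunit genes at the top of the order encode short, basic proteins. Rpl37a, at chr1:72711290-72713813, stood at 275 and 313 CPM with CCM and at 653 and 373 CPM with TCM (0.81 log2 units, SE 0.20, adjusted P = 0.0157). Rpl38, at chr11:114668524-114672331, which is known for its part in translation of Hox mRNAs, stood at 162 and 179 CPM with CCM and at 375 and 214 CPM with TCM (0.79 log2 units, SE 0.20, adjusted P = 0.0150). In each, library 2 exceeded the higher CCM library by far less than library 1 did, and without library 1 the log2 FC was 0.35 for Rpl37a and 0.33 for Rpl38.

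The TCM libraries were closer to each other in Rpl28 and Rpl4. Rpl28, at chr7:4792874-4795066, stood at 462 and 507 CPM with CCM and at 877 and 714 CPM with TCM. It had the smallest adjusted P of the 76 genes, 0.00230, with a log2 FC of 0.71 (SE 0.13), and 0.56 without TCM library 1. It is 1 of 21 members that another gene overlaps on the opposite strand, and whether reads were counted by strand is not given in the sources used here. Rpl4, one of the largest ribosomal proteins, with a loop that reaches into the exit tunnel, lies at chr9:64173375-64178666. It stood at 1611 and 1738 CPM with CCM and at 2768 and 2227 CPM with TCM (0.58 log2 units, SE 0.12, adjusted P = 0.00710, and 0.41 without TCM library 1). For both genes the lower TCM library was well clear of the higher CCM library.

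In the small subunit, Rps23, a protein of the decoding centre, stood at 405 and 468 CPM with CCM and at 898 and 551 CPM with TCM (0.73 log2 units, SE 0.18, adjusted P = 0.0161). Rps6, the classical substrate of the S6 kinases, stood at 425 and 454 CPM with CCM and at 783 and 549 CPM with TCM (0.60 log2 units, SE 0.15, adjusted P = 0.0147). The groups did not overlap for either gene. Neither gene is on the list of the small-subunit head. Of the 14 genes of the head list, 6 rose and 8 did not pass, where 42.1% of the 76 genes rose and 8.83% of all. The median log2 FC of the head list was 0.50, or 0.14 without TCM library 1.

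Among the genes of mRNA entry and exit, Rps3 and Rpsa did not pass. Rps3, which also acts in DNA repair, stood at 1152 and 1369 CPM with CCM and at 2019 and 1266 CPM with TCM, so that TCM library 2 fell between the CCM libraries (0.38 log2 units, SE 0.18, adjusted P = 0.164). Rpsa, the laminin receptor precursor, behaved alike, at 905 and 1003 CPM with CCM and 1356 and 967 CPM with TCM (0.28 log2 units, SE 0.15, adjusted P = 0.207). Rps19 and Rps27a are on the head list and not on that of mRNA entry and exit. Rps19, the gene most often mutated in Diamond-Blackfan anaemia, stood at 255 and 273 CPM with CCM and at 409 and 282 CPM with TCM (0.39 log2 units, SE 0.15, adjusted P = 0.0839). Rps27a, made as a fusion with ubiquitin, stood at 503 and 590 CPM with CCM and at 957 and 593 CPM with TCM (0.50 log2 units, SE 0.18, adjusted P = 0.0750). Of the 6 genes of the entry and exit list 2 rose, and of the 18 Diamond-Blackfan genes 6 rose and 0 fell. Both lists are to be read beside the 42.1% of the 76 genes and 8.83% of all tested genes that rose. The Diamond-Blackfan genes had a median log2 FC of 0.47, or 0.12 without TCM library 1.

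Rpl5 and Rpl11 join the 5S rRNA in a particle that, when left over, binds Mdm2. Rpl5 rose, from 546 and 622 CPM with CCM to 972 and 693 CPM with TCM (0.51 log2 units, SE 0.15, adjusted P = 0.0314, and 0.25 without TCM library 1). Rpl11 stood at 437 and 527 CPM with CCM and at 810 and 514 CPM with TCM, and the groups overlapped (0.46 log2 units, SE 0.18, adjusted P = 0.0955). Rpl10, which completes the large subunit late in its maturation, rose from 540 and 558 CPM to 798 and 672 CPM (0.42 log2 units, SE 0.11, adjusted P = 0.0177).

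The 3 proteins of the P stalk, which calls in elongation factors, did not behave alike in the test. Rplp2 rose, from 447 and 499 CPM with CCM to 883 and 567 CPM with TCM (0.62 log2 units, SE 0.18, adjusted P = 0.0287). Rplp1 stood at 1491 and 1668 CPM with CCM and at 2459 and 1755 CPM with TCM (0.42 log2 units, SE 0.16, adjusted P = 0.0888). Rplp0, the scaffold of the stalk and a common reference gene in quantitative PCR, stood at 1722 and 1808 CPM with CCM and at 2188 and 1733 CPM with TCM, so that TCM library 2 lay between the CCM libraries (log2 FC 0.15, SE 0.13, 95% CI -0.13 to 0.43, adjusted P = 0.436).

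At the other end of the order, 44 of the 76 genes did not pass, with log2 FC from -0.57 to 0.55. Rpl9 stood at 599 and 702 CPM with CCM and at 811 and 602 CPM with TCM (log2 FC 0.12, 95% CI -0.19 to 0.43), and Rpl10a at 358 and 374 CPM with CCM and at 467 and 339 CPM with TCM (log2 FC 0.14, 95% CI -0.16 to 0.44). Rpl10a is overlapped by another gene on the opposite strand. Below 0 were Rpl13a and Rps10 alone. Rpl13a stood at 83.4 and 89.7 CPM with CCM and at 88.3 and 58.2 CPM with TCM, which is -0.24 log2 units (SE 0.16, adjusted P = 0.33) and became -0.57 (adjusted P = 0.00251) without TCM library 1. Rps10 stood at 5.99 and 4.30 CPM with CCM and at 3.90 and 3.06 CPM with TCM (-0.57 log2 units, SE 0.25, adjusted P = 0.131).

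**Figure D3:**
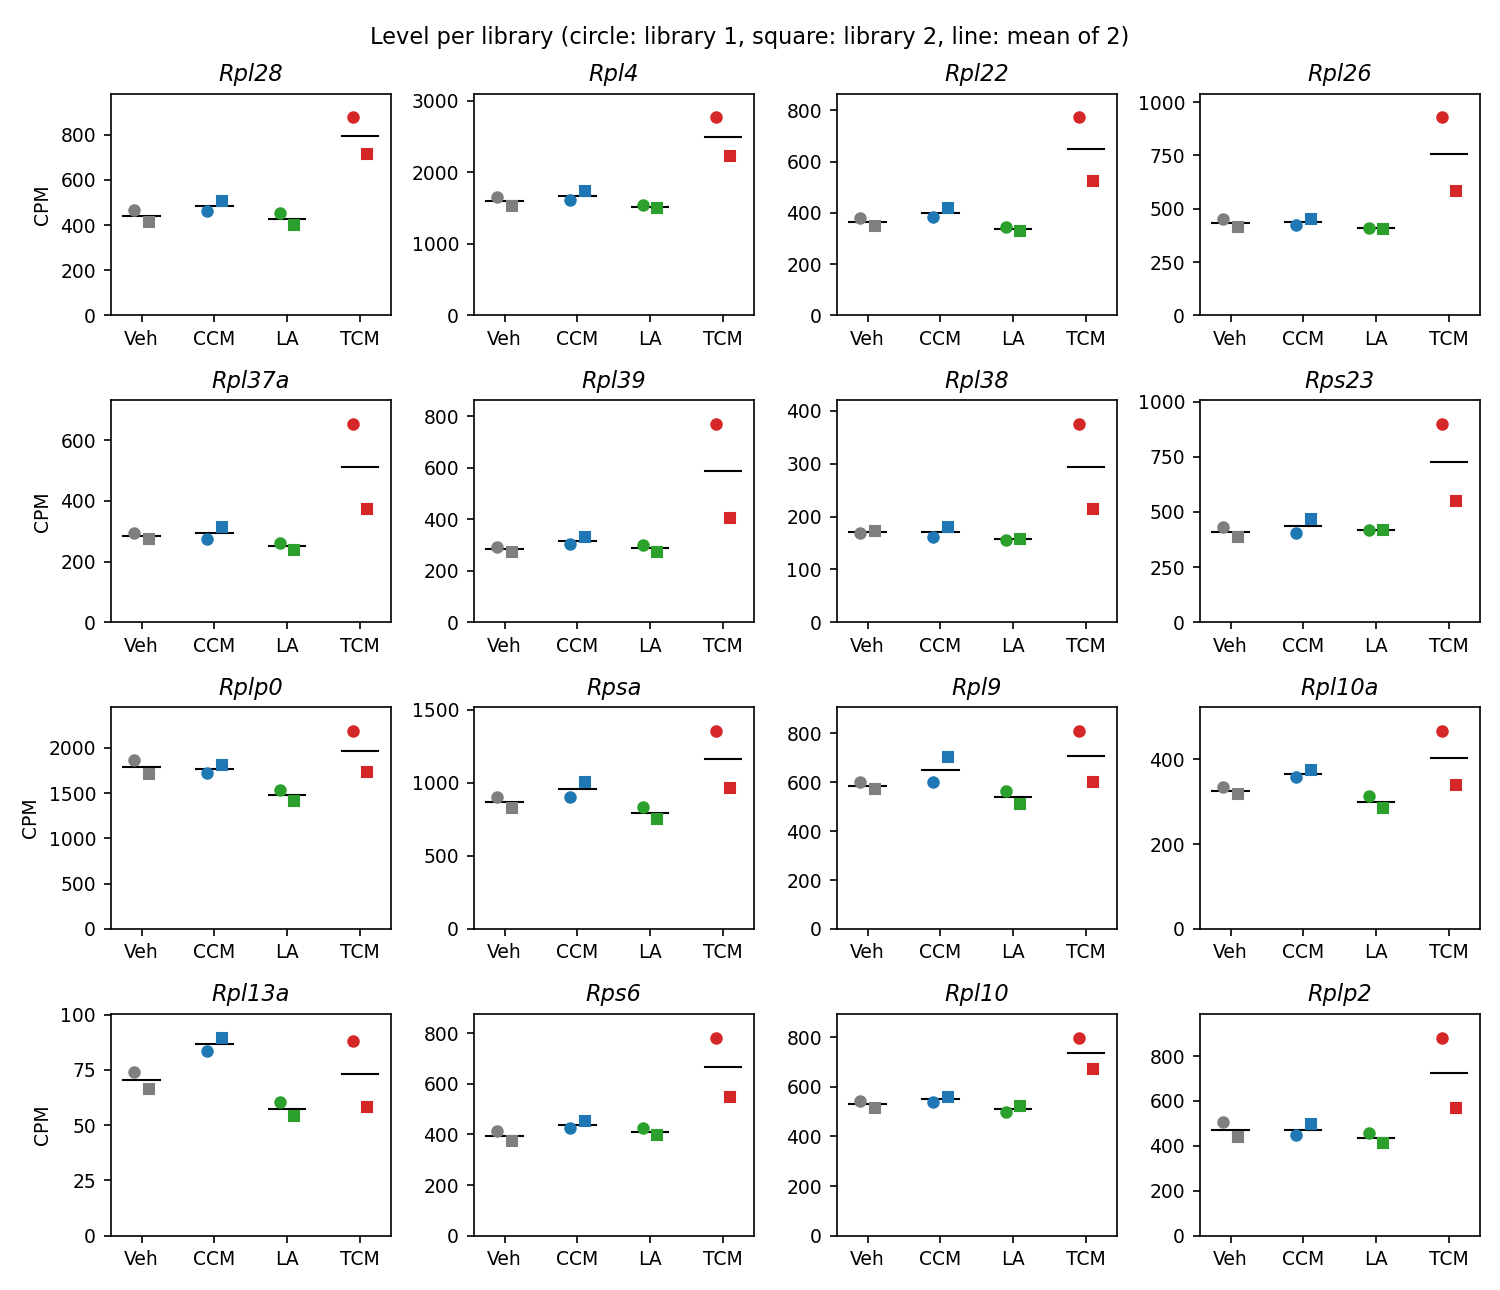
Level in CPM of 16 ribosomal protein genes in each library, with circles for library 1, squares for library 2 and a line at the mean of 2 (Veh, vehicle). In Rpl28 and Rpl4 both TCM libraries stood clear of the other 6, whereas in Rplp0, Rpsa, Rpl9, Rpl10a and Rpl13a TCM library 2 was level with or below a CCM library.

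Ribosomal protein mRNAs are short, and length followed the split between the TCM libraries over all genes. The median principal transcript was 886.5 nt in the 76 genes and 3098 nt in the 11136 other tested genes with a length. Over those other genes the difference between TCM library 1 and TCM library 2 had a Spearman's rho of -0.617 with length, a description over genes of the same 2 libraries. Other genes of 501 to 750 nt were 0.54 higher in library 1 than in library 2 on the log2 scale, and those over 4000 nt were 0.21 lower. The ribosomal protein genes of 501 to 750 nt were 0.65 higher.

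Other genes of the same length as ribosomal protein genes differed from them in level, with a median log2 CPM of 4.92 against 8.68 in the 501 to 750 nt class. In the 501 to 750 nt class the median log2 FC was 0.45 for the 16 ribosomal protein genes and 0.19 for 169 other genes, and without TCM library 1 it was 0.12 and -0.10. In the 751 to 1000 nt class it was 0.48 for 22 ribosomal protein genes and 0.12 for 329 others, and without TCM library 1 it was 0.16 and -0.11. In the 1001 to 1500 nt class it was 0.39 for 17 and 0.08 for 964, and without TCM library 1 it was 0.15 and -0.10. The 2 smaller classes, with 10 and 8 ribosomal protein genes, had the same order, and 3 members over 2500 nt were not placed in a class. The part of mRNA length in the calls with TCM was not tested.

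**Figure D4:**
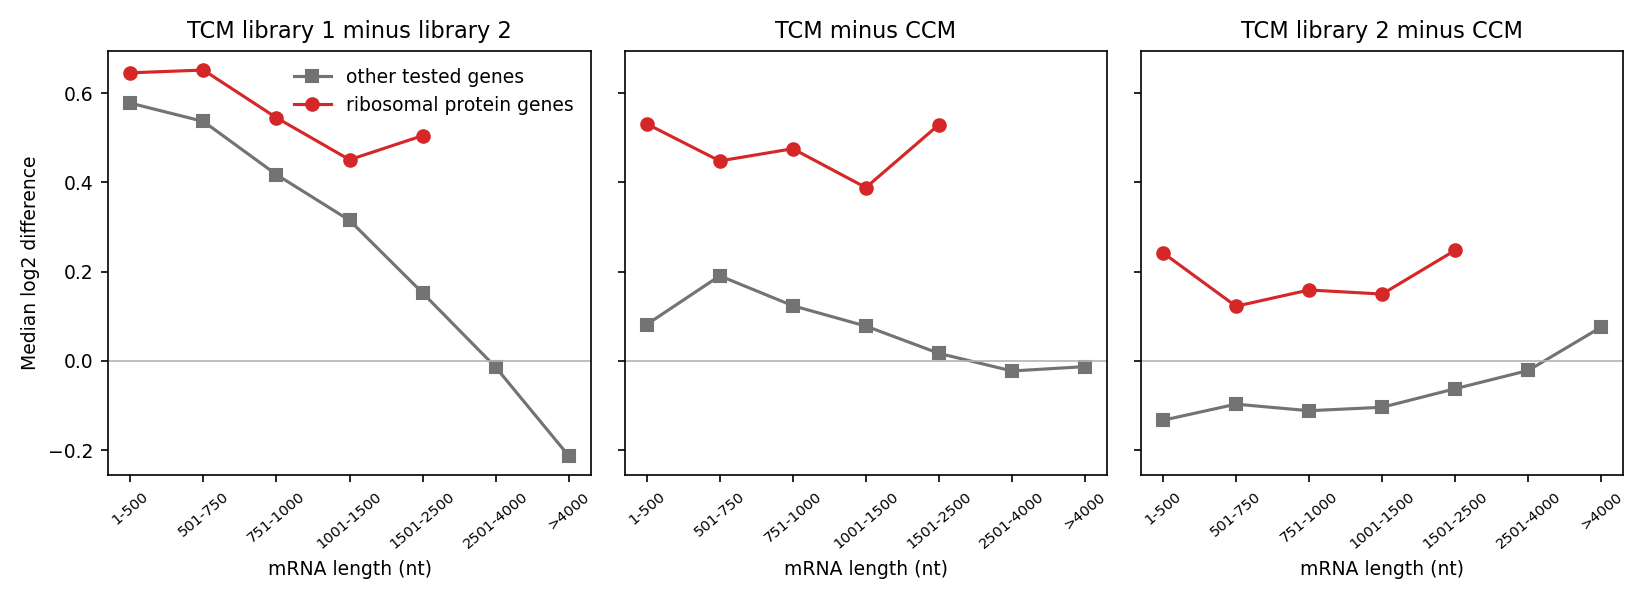
Median log2 difference by class of mRNA length (nt) for ribosomal protein genes (red circles, 73 of 76) and other tested genes (grey squares). The difference between the TCM libraries fell with length in the other genes, from 0.58 to -0.21, and the ribosomal protein genes lay above the other genes of their length in all 3 panels.

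LA against vehicle asks what lactic acid alone did, and none of the 76 genes passed. There were 0 rises and 0 falls, where 1.31% of all tested genes rose and 1.24% fell, by edgeR, and DESeq2 gave 0 calls too. At an unadjusted P under 0.05, 1 gene differed, and 14.3% of all genes. The median log2 FC was -0.10, with 67 of 76 values below 0, and both LA libraries were below both vehicle libraries for 29 genes (38.2%, against 24.2% of all genes). This median was no larger than the gap of 0.11 between the LA libraries and of 0.14 between the vehicle libraries, and it was -0.01 without vehicle library 1, -0.16 without vehicle library 2, -0.14 without LA library 1 and -0.05 without LA library 2. The 95% CI stayed under a log2 FC of 0.39 for 71 of 76 genes, and lay within 0.39 on both sides for 19.

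The lowest values with LA were in Rpl13a and in the P-stalk genes Rplp0 and Rplp1, but not in Rplp2 of the same stalk (log2 FC -0.12). Rplp0 stood at 1868 and 1712 CPM with vehicle and at 1539 and 1408 CPM with LA, without overlap (-0.28 log2 units, SE 0.13, adjusted P = 0.349). Rplp1 stood at 1657 and 1445 CPM with vehicle and at 1406 and 1200 CPM with LA (-0.25 log2 units, SE 0.16, adjusted P = 0.553), and Rpl13a at 74.0 and 66.5 CPM with vehicle and at 60.7 and 54.0 CPM with LA (-0.29 log2 units, SE 0.17, adjusted P = 0.485). The highest were Rps10 at 0.26, Rps6 at 0.06 and Rps23 at 0.03 on the log2 scale. Rps6 stood at 415 and 373 CPM with vehicle and at 424 and 397 CPM with LA, with overlap.

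CCM against vehicle asks what conditioning by FRCs did, and uses the vehicle libraries of the LA comparison and the CCM libraries of the TCM comparison. Again 0 genes rose and 0 fell, where 0.898% of all genes rose and 0.404% fell, by edgeR, and DESeq2 gave 0 calls. At an unadjusted P under 0.05, 1 gene differed, Rps10, and 12.9% of all genes. The median log2 FC was 0.10, with 75 of 76 values above 0, but both CCM libraries were above both vehicle libraries for 20 genes (26.3%), close to the 25.8% of all genes. The median was 0.03 without CCM library 2 or vehicle library 2, and 0.18 without CCM library 1 or vehicle library 1. Rps10 had the largest value, at 2.46 and 2.50 CPM with vehicle and 5.99 and 4.30 CPM with CCM (1.06 log2 units, SE 0.26, adjusted P = 0.0769), on 22 to 71 counts per library. Next were Rpl13a at 0.30 and Rpl17 at 0.23. Rplp0 at -0.02, Rplp2 at 0.00 and Rpl38 at 0.00 were the lowest.

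The difference between the TCM effect (against CCM) and the LA effect (against vehicle) was tested as an interaction. It was larger than 0 for 7 genes (9.21%) and smaller for 0, where 4.45% and 6% of all genes passed in these directions. At an unadjusted P under 0.05, 53 of the 76 differed (69.7%), and 24.2% of all genes. Of the 7 genes, 5 are named here: Rpl28 (log2 difference of effects 0.76, adjusted P = 0.0193), Rpl4 (0.64, 0.0385), Rpl22 (0.81, 0.0391), Rpl26 (0.88, 0.0421) and Rpl37a (0.99, 0.0493). All 7 had also risen with TCM, but the interaction uses the same TCM and CCM values, so this is not separate support. With LA they were near their vehicle level: Rpl28 stood at 465 and 415 CPM with vehicle and at 453 and 401 CPM with LA, and Rpl4 at 1658 and 1526 CPM and at 1540 and 1501 CPM. The median difference of effects over the 76 genes was 0.56.

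Without TCM library 1 the same 7 genes passed among 10 (6.85% of all genes passed as higher), with values from 0.48 to 0.60 and a median over the 76 genes of 0.28. The other 3 were Rpl23a, Rpl38 and Rps21. Calls were lost on leaving out other libraries, as they were over all genes. None remained without vehicle library 1 (2.2% of all genes passed as higher), CCM library 1 (1.85%), CCM library 2 (2.15%) or LA library 2 (2.21%), and 1 remained without vehicle library 2 (2.49%) or LA library 1 (3%). The values of the 7 genes in these fits ran from 0.58 to 0.94 without vehicle library 1, from 0.59 to 0.90 without CCM library 1 and from 0.70 to 1.09 without CCM library 2, against 0.64 to 0.99 with all libraries. Without TCM library 2, 71 passed, and 10.7% of all genes.

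Ribosomal protein genes outside the symbol rule gave 2 rises among 8 tested, where 8.83% of all tested genes rose. Fau, the source of the small-subunit protein eS30, stood at 297 and 322 CPM with CCM and at 558 and 380 CPM with TCM (0.60 log2 units, SE 0.16, adjusted P = 0.0181). Rack1, the signalling scaffold bound to the small-subunit head, rose from 1806 and 1900 CPM to 2927 and 2235 CPM (0.48 log2 units, SE 0.14, adjusted P = 0.0279). Without TCM library 1 neither passed, with log2 FC of 0.30 for Fau and 0.27 for Rack1. The paralogs gave no call: Rpl22l1, the partner of Rpl22, had a log2 FC of 0.30 (adjusted P = 0.316), Rpl7l1 of -0.11, Rps27l, a p53 target, of -0.04, and Rpl36al of 0.61 on 1.53 to 4.74 CPM (adjusted P = 0.379). Rpl39l was at 0 counts in all 8 libraries, and Rpl3l held 1 count in CCM library 1. For Rpl22 and Rpl22l1 the LA values were -0.11 and -0.12.

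Among genes that work with ribosomal proteins, 5 of 29 initiation factors rose with TCM and 0 fell, where 8.83% of all genes rose: Eif4a2, a helicase of the cap-binding complex (264 and 278 CPM with CCM, 439 and 381 CPM with TCM, log2 FC 0.59, adjusted P = 0.00201), and the eIF3 subunits Eif3f (0.51, 0.00996), Eif3e (0.46, 0.0141), Eif3k (0.43, 0.0451) and Eif3i (0.43, 0.0488). The last 3 were named after their values were seen. The list's median was 0.04. Without TCM library 1 it was -0.02 and 1 of the 29, Eif4a2, passed, where 9.02% of all genes rose. None of the 6 elongation factors passed, with a median of 0.30, or 0.10 without TCM library 1. Eef2, which moves the ribosome along the mRNA, had a log2 FC of 0.34 (adjusted P = 0.0414), under the fold threshold, and Eef1a1 of 0.32 (adjusted P = 0.0663). Without TCM library 1 the log2 FC was 0.39 for Eef2 and 0.26 for Eef1a1. Of 10 other mRNAs known for a TOP start, Pfdn5 rose (118.5 and 141 CPM with CCM, 229 and 168 CPM with TCM, log2 FC 0.62, adjusted P = 0.00996) and Snhg1, a host of snoRNAs, fell (log2 FC -0.88, adjusted P = 0.00247). The median of the 10 was 0.19, or -0.007 without TCM library 1.

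Of 72 ribosome assembly factors 0 rose and 3 fell with TCM, where 8.83% of all genes rose and 10.2% fell. The median of the list was -0.03, or -0.15 without TCM library 1. Nop56, a core protein of box C/D snoRNPs, fell from 108 and 113 CPM to 80.2 and 82.3 CPM (log2 FC -0.45, adjusted P = 0.0143), and Dkc1, the pseudouridine synthase of box H/ACA snoRNPs, fell from 62.6 and 68.8 CPM to 54.3 and 45.8 CPM (log2 FC -0.39, adjusted P = 0.0273). The third, named after its value was seen, was Noc3l. None of 20 RNA polymerase I genes passed (median -0.06). The 2 of smallest adjusted P were Taf1d at -0.49 (adjusted P = 0.0801) and Polr2e at 0.29 (adjusted P = 0.0868). Without TCM library 1 the median of the 20 was -0.23, with Taf1d at -0.87 and, named after its value was seen, Cd3eap at -0.51. Of 77 mitochondrial ribosomal protein genes, Mrpl30 rose (log2 FC 0.54, adjusted P = 0.00842) and none fell, with a median of 0.04, or -0.13 without TCM library 1. Mrps2 had a log2 FC of -0.35 (adjusted P = 0.0910).

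Among 24 genes of growth control, 6 fell and 1 rose with TCM, where 10.2% of all tested genes fell and 8.83% rose. Ddit4, an inhibitor of mTORC1, fell from 149 and 166 CPM with CCM to 90.7 and 82.8 CPM with TCM (-0.86 log2 units, SE 0.10, adjusted P = 0.000176), and Sesn2, the leucine sensor of the same pathway, from 109 and 113 CPM to 45.7 and 57.0 CPM (-1.12 log2 units, SE 0.14, adjusted P = 0.000313). The others, named after their values were seen, were Sesn3 (-0.71), Deptor (-0.49), Mxd4 (-0.40) and Sesn1 (-0.39), and Mxi1, an antagonist of Myc, rose (0.73). The median of the list was -0.14, or -0.04 without TCM library 1. Without that library Mtor (0.58) and Mnt (0.44) were above 0 and Castor1 (-0.56) was below. These genes were named after their values were seen. With LA, 1 gene of the list, Mxd4, fell (log2 FC -0.43, adjusted P = 0.0282), where 1.24% of all tested genes fell. With TCM the proliferation list went the other way from the ribosomal proteins. Of its 15 genes 15 fell (10.2% of all genes), with a median of -1.20, or -1.08 without TCM library 1. With LA 11 of 15 rose (1.31% of all), while the ribosomal protein median was -0.10 with 0 calls. With CCM against vehicle 11 of 15 rose (0.898% of all), and both medians were above 0 (0.59 and 0.10). The paper reports no effect of LA or TCM on FRC proliferation by Ki67 staining, a protein measure. Ccna2, the cyclin of S and G2 phase, stood at 149 and 137 CPM with CCM and at 53.6 and 53.8 CPM with TCM (log2 FC -1.41, adjusted P = 1.9e-05), and Plk1, a mitotic kinase, at 56.1 and 52.8 CPM and at 17.4 and 19.5 CPM (log2 FC -1.56, adjusted P = 2.08e-05). The part of cell cycle or growth signals in the ribosomal protein values was not tested.

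**Figure D5:**
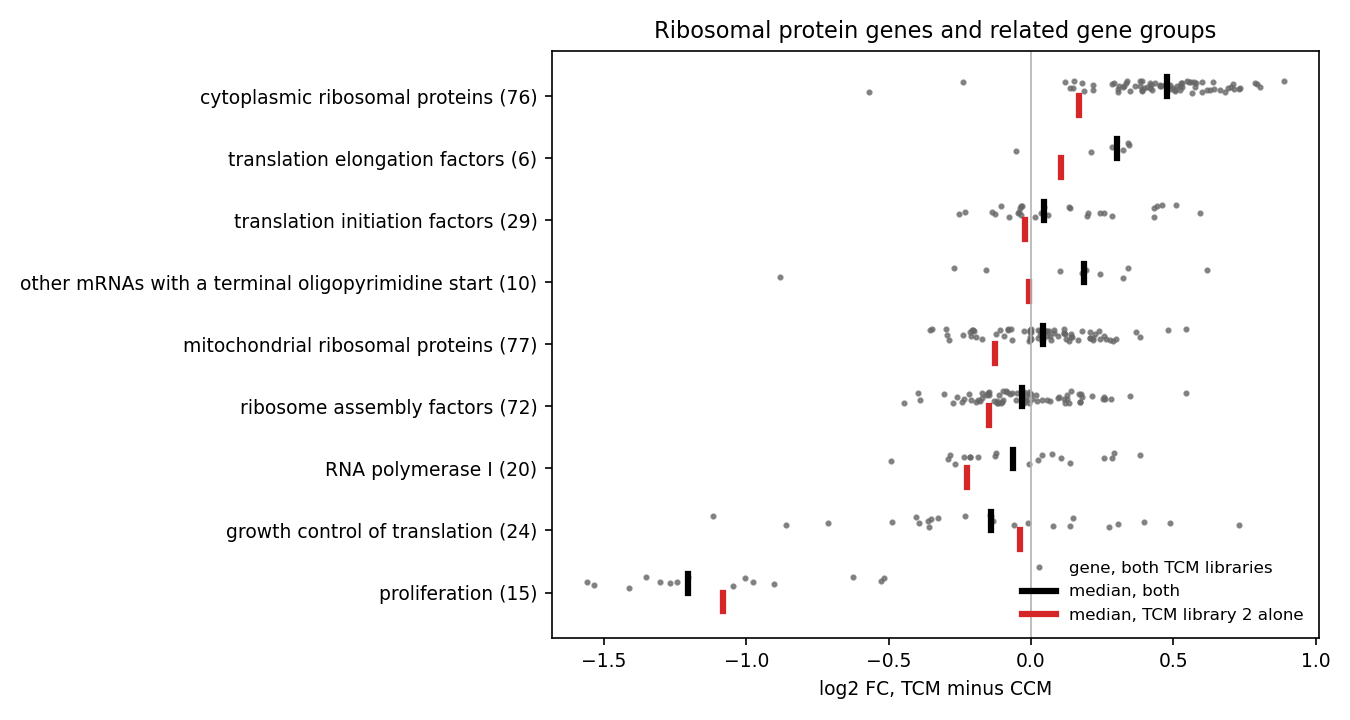
The log2 FC of TCM against CCM for each gene of 9 groups (points), with the group's median for both TCM libraries (black) and for TCM library 2 alone (red); the number of genes is in parentheses. The ribosomal proteins had a median of 0.48, or 0.17 with library 2 alone. The elongation factors had 0.30, or 0.10 with library 2 alone, and the proliferation genes -1.20, or -1.08.

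The start sites of the genes show what they share in sequence. RefSeq promoter windows on GRCm38.p6, 250 bases before the annotated start and 50 after, were at hand for 56 of the 76 genes and for 27025 genes in all. The annotated first base was C in 35.7% of the 56 genes and in 16.2% of all, and C with a pyrimidine run of 5 or more bases from that base in 21.4% and 2.49%. A run of at least 8 C or T bases within 10 bases of the start was present in 44.6% and 13.9%. The letters CCGGAAG, a core read by ETS factors such as GABP, were present on either strand in 41.1% and in 9.12% of all, or 19.2% of 9329 other tested genes. The palindrome CACGTG, the E-box read by Myc, was present in 8.93% and 7.24%, or 10.4% of the other tested genes, and TATAAA between 50 and 10 bases before the start in 0% and 2.64%.

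The windows below show 30 bases before and 15 from the annotated start for genes at the top and at the bottom of the TCM order, to let the starts be compared, with capitals for the longest run of C and T that touches the 10 bases on either side of the start. Rpl39 lies at chrX:37085208-37085252 on the minus strand, Rpl37a at chr1:72711230-72711274, Rpl26 at chr11:68901536-68901580 and Rpl38 at chr11:114668550-114668594 on the plus strand. Of the genes with the smallest differences, Rpl9 lies at chr5:65391417-65391461 on the minus strand, Rpl10a at chr17:28328441-28328485 and Rplp0 at chr5:115559437-115559481 on the plus strand, and Rpl13a at chr7:45128731-45128775 on the minus strand.
Rpl39: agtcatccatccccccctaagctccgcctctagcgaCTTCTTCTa
Rpl37a: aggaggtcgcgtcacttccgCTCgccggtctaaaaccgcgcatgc
Rpl26: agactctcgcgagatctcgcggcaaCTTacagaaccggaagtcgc
Rpl38: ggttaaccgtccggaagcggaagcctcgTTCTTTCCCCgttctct
Rpl9: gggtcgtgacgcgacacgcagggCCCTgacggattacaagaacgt
Rpl10a: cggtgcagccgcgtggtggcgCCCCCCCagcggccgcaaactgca
Rplp0: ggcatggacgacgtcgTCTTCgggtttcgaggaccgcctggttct
Rpl13a: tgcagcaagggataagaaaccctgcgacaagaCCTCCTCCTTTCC

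Long runs stood at both ends of the order: Rpl38 has a run of 10 bases that spans the start and Rpl39 one of 8 bases, while Rpl13a, lowest but for Rps10, has one of 14 bases that goes on past the window, and Rpl37a and Rpl26, near the top, have runs of 3. The annotated start can miss the base most used in these cells. Over the 56 genes the median log2 FC with TCM was 0.48 for the 25 with a run of at least 8 bases and 0.46 for the 31 without, or 0.17 and 0.15 without TCM library 1. It was 0.46 for the 23 genes with CCGGAAG and 0.47 for the 33 without, or 0.20 and 0.14 without TCM library 1. It was 0.50 for the 12 genes with a C start and a pyrimidine run of 5 or more bases and 0.46 for the 44 without, or 0.24 and 0.15 without TCM library 1. These medians are a description with no test.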

How the data were processed

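Poly(A) RNA of 8 libraries was sequenced by the authors, aligned to GRCm38 with STAR 2.7.0a (Ensembl annotation) and counted per gene with featureCounts of Subread 2.0.1, per the labels and the paper's methods. The deposited values are raw counts per gene, not normalized; a second deposited table held the same counts for 12137 genes. The authors' own tests used DESeq2 1.32.0. The strand setting is not given in the sources used here.

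Genes that reached 10 counts in 3 or more libraries were scaled by TMM and fitted with edgeR 4.0.16 (quasi-likelihood, robust, all 8 libraries, R 4.3.3). P values were Benjamini-Hochberg adjusted over 12137 genes, and a call needed an adjusted P under 0.05 and a log2 FC beyond 0.39. DESeq2 1.42.0 was an alternative. Fits were run on simulated data in which each gene was drawn on its own. The simulation held no shift shared by genes of a library or tied to mRNA length, so it does not cover those seen here. With 1 TCM library left, its spread is assumed to equal that of the other groups. Intervals and floors cover counting error or the spread between libraries only. Positions, lengths and TPM use GENCODE M21 on GRCm38.

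Members and lists were chosen with earlier results of these data known. Named were members called in the LA, CCM or interaction tests, the 5 highest and lowest with TCM, the 3 highest and lowest with LA and with CCM, 13 members by role, paralogs, and the 2 genes of smallest adjusted P with TCM per list; 4 of the genes so named are not reported here. Replicate numbers were not taken as pairs: deviations of same-numbered libraries correlated at 0.353 for vehicle and LA but at -0.242 for CCM and TCM.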

Additional observations from a re-analysis of the deposited data

Results flagged for a closer look

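The TCM effect and the LA effect differed in 7 ribosomal protein genes by the interaction test of edgeR. The log2 difference of effects was 0.76 for Rpl28, 0.64 for Rpl4, 0.81 for Rpl22, 0.88 for Rpl26 and 0.99 for Rpl37a. For each of these 5 genes both TCM libraries were above both CCM libraries, which are the values that the test itself used. No condition had enough libraries for a test of single outlying libraries.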

How the results depend on the processing

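With TCM against CCM, 32 genes were called, where 2314 of all 12137 genes were called in either direction. The count was 15 without TMM factors (2692 over all genes), 50 by DESeq2 (2004) and 53 without a filter on low counts (2696 of 23234). It was 5 with only the 4 libraries compared (1731), 11 at a log2 FC beyond 0.68 (1331) and 1 by glmTreat at 0.39 (979). Leaving out 1 library gave 1 (without CCM library 1) to 66 (without TCM library 2), and a median log2 FC of 0.17 (without TCM library 1) to 0.71 (without TCM library 2). All 32 genes were among those called by DESeq2, without the filter and without TCM library 2, and all 15 called without TMM factors were among the 32. For the TCM effect minus the LA effect, 7 genes were called (1268 over all genes). The count was 0 without TMM factors (1412 over all genes), 27 by DESeq2 (1124), 55 without the filter (1799 of 23234) and 0 by glmTreat (625). It was 0 to 71 on leaving out 1 library. For CCM against vehicle, with 0 calls (158 over all genes), the count was 1 without the filter (584 of 23234) and 1 with only the libraries compared (679). Its median ran from 0.03 to 0.18 on leaving out 1 library. LA against vehicle had 0 calls under every alternative run. No median changed sign, and the shares of reads moved by less than the spread between libraries with the other totals. The cause was not tested for any of these changes.

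With the replicate number as a replicate block, 38 genes were called for TCM against CCM (2367 over all genes) and 8 for the difference of effects (1316). Same-numbered libraries did not deviate together in every pair, so the numbers were not taken as pairs. A replicate block with crossed CCM numbers was an alternative added once the data had been seen. It gave 49 calls for TCM against CCM (2675 over all genes) and 51 for the difference of effects (1938). For CCM against vehicle it gave 1 (457), and for LA against vehicle 0 (596).

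Having 2 libraries per condition limits what can be called: the median standard error of a gene's log2 FC was 0.16, and the 95% CI lay within 0.39 on both sides for 19 of 76 genes with LA and for 19 with CCM. Low counts limit Rps10 and Rpl24. Whether the TCM effect is nearer to that of TCM library 1 or TCM library 2 cannot be told from these libraries.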
